A study of Gallus gallus with 51 samples.

Results

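The genes described here are the transcription factors and adaptors of cytokine, interferon and stress signalling on a transcription factor array: the STATs, the interferon regulatory factors (IRFs, with the older names ICSBP1 and ISGF3G), the TRAF adaptors, the NF-kappaB proteins with their inhibitors, and the NFATs. They were picked out by a pattern in the probe name. The pattern uses no measured value, but the group was settled on with earlier results of these data known. The rule found 34 of the 1509 gene probes, 1 for each gene name: 7 STAT, 9 IRF, 3 TRAF, 10 NF-kappaB and 5 NFAT probes. Of the 34 names, 26 equalled a symbol of the chicken annotation and 2 more (IRF3 and STAT5B) a synonym there. IRF3 is an older name of the chicken IRF7 gene in that annotation, so the IRF3 and IRF7 probes may stand for 1 chicken gene. The remaining 6 (ICSBP1, ISGF3G, NFATC4, NFKBIL1, NFKBIL2 and RELB) matched neither and kept the name of the array's design. TRAF1 to TRAF3 and BCL3 were not analysed here.

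STATs are cytoplasmic proteins that kinases at cytokine receptors phosphorylate, after which they enter the nucleus and bind DNA; IRFs act beside them in the interferon response. NF-kappaB dimers are held in the cytoplasm by inhibitor (IkB) proteins and are released when receptors for interleukin-1, tumour necrosis factor or microbial products signal through TRAF adaptors, whereas NFATs enter the nucleus after calcium activates calcineurin. These proteins are controlled largely by modification and location, which an array of RNA does not see. In the inner ear they have been studied mostly in the response to noise and ototoxic drugs.

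The samples were sensory epithelia of the cochlea of White Leghorn chicks, taken in the first weeks after hatching. Whole cochleae were cultured with neomycin, an aminoglycoside that kills hair cells, or without it, and were collected at the end of the treatment (0 hr) or after a further 24 hr or 48 hr in culture without the drug. The epithelia were then freed from the stroma with thermolysin, several were pooled per sample, and the RNA was amplified. Neomycin and time-matched control RNA were hybridised together on 51 two-colour arrays, with 17, 16 and 18 arrays at 0, 24 and 48 hr from 3 biological replicates at each time. All groups thus shared culture, thermolysin and amplification, and every comparison was of neomycin with culture alone. The probes were made to human coding sequence, so a weak signal in chicken RNA may be a poor match of the probe as well as little RNA. This limits every comparison below of signal or detection between probes.

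The suffix of a sample name gave the dye of the neomycin RNA (3 for Cy3, 5 for Cy5), and the dye in the image headers equalled it on 51 arrays. The quality of the arrays was uneven. Between 0.098% and 89.0% of the spots of an array lay at or below their local background in Cy5, and between 0% and 81.5% in Cy3. Within a biological replicate, an array's median correlation with the others over the tested probes was between 0.71 and 0.75 at 24 hr in replicate 2, but between -0.01 and 0.13 at 48 hr in replicate 3. At 0 hr, array 2 of suffix 5 in replicate 3 correlated negatively with the 3 other arrays of its replicate (from -0.64 to -0.26). The mean of TRAF6 at 0 hr is therefore given with and without it. Other values at 0 hr include this array unless stated, and without it 3 of the 29 genes tested below changed sign there. The image headers of array 3 of the same suffix and replicate named Cy5 for both RNAs. In replicate 1 at 0 hr, array 3 of suffix 5 had a median correlation of -0.22 with the others (from -0.42 to 0.41). In Cy5 81.9% of its spots did not exceed their background. An alternative left out 5 arrays taken to stand apart, this one and the 2 named in replicate 3 among them. The others were, at 48 hr, array 3 of suffix 3 in replicate 1 and array 1 of suffix 5 in replicate 2. Of these, array 3 of suffix 5 in replicate 3 at 0 hr had the highest median correlation of its replicate (0.33). Leaving out the 5 arrays changed the sign of 10 of the 29 genes at 0 hr. The arrays had been quantified on 14 days, and a single day held arrays of more than 1 time point, so day and recovery time can barely be told apart.

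The first question was which of these genes could be seen at all. Each channel (1 dye of 1 array) had its own limit, the 95th percentile over its negative controls, and a probe over that limit in 80% or more of a time point's channels counted as detected. By this measure 3 of 34 probes were detected at 0 hr (IRF2, NFKB2 and TRAF6), 1 at 24 hr (TRAF6) and 1 at 48 hr (TRAF4). The count was 0 at 24 hr without replicate 1, and at 48 hr it was 3 without replicate 1 and 0 without replicate 2. Over all 1509 gene probes the shares were 4.77%, 1.72% and 3.84%. Few of these genes, as of the genes on the array, were thus detected by this measure. The study, with a cutoff of its own from control oligonucleotides, scored more genes as expressed in the cochlea. A gene not detected here may therefore still be expressed.

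Most of these genes gave a signal at or near that of the negative controls. From their names these were taken to be the study's control oligonucleotides, which by its methods match neither genome. The median probe of the group was above the limit in 14.7% of channels at 0 hr, 3.12% at 24 hr and 20.8% at 48 hr, against 11.8%, 12.5% and 22.2% for the other 1475 gene probes. At 24 hr, 16 of 34 (47.1%) were never above it, against 23.4% of the other gene probes. Among those 16 were STAT2, STAT3, STAT4, STAT5A, STAT5B and STAT6, NFAT5, NFATC2, NFATC3 and NFATC4, with ICSBP1, IRF3, IRF4, NFKB1, NFKBIA and NFKBIE. At 0 hr 4 probes were never above the limit (STAT4, STAT5A, ISGF3G and RELA), and at 48 hr 5 were (STAT5A, IRF3, IRF4, ISGF3G and NFATC3). STAT5A was thus not seen above the limit at any time point.

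**Figure D1:**
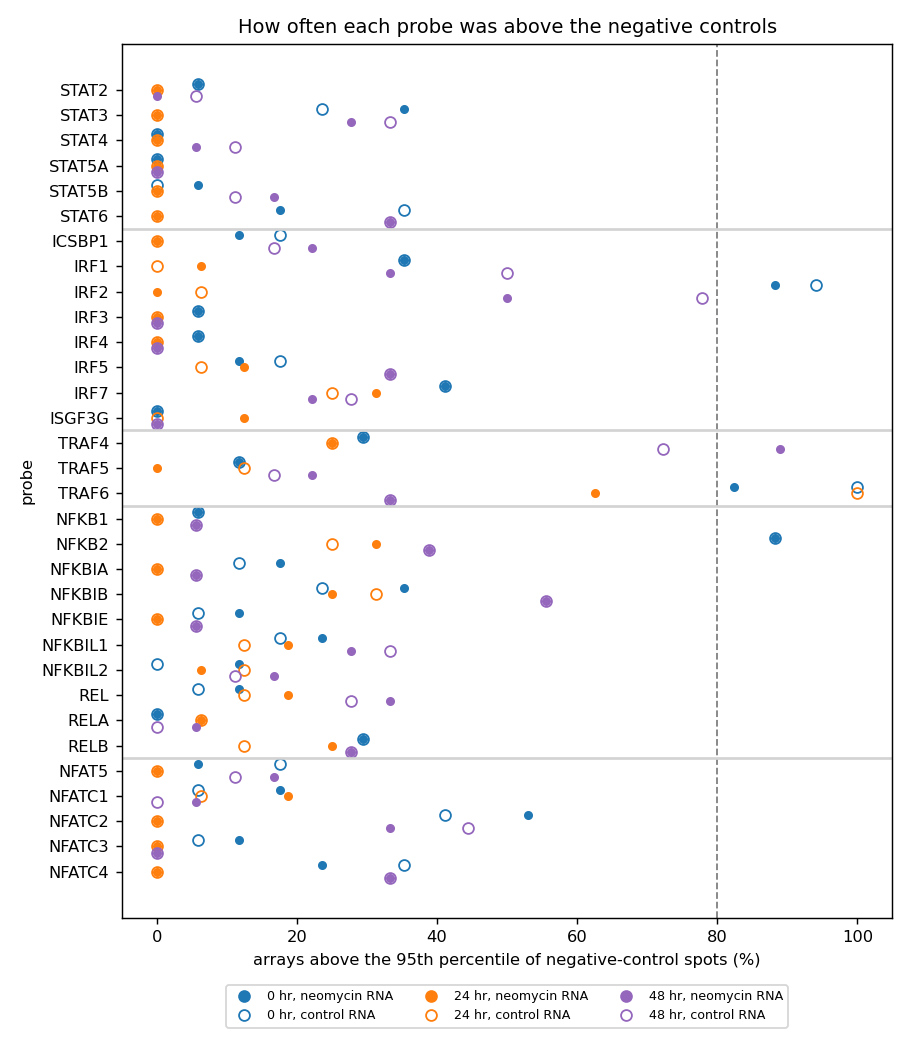
Share of arrays (x axis, %) on which each of 32 probes (y axis) exceeded the limit set by the negative controls, for neomycin RNA (filled) and control RNA (open) at each time point; the dashed line is the 80% asked for in detection. TRAF6 stands at 100% in control RNA at 0 and 24 hr and at 33.3% at 48 hr, and 16 of the 32 probes drawn lie at 0% in both RNAs at 24 hr.

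TRAF6 is the ubiquitin ligase that carries signals from interleukin-1 and Toll-like receptors to NF-kappaB. Its control RNA was above the limit on 100% of the arrays at 0 hr and at 24 hr, whereas its neomycin RNA was above it on 82.4% and 62.5%. At 48 hr both stood at 33.3%. The signal of the control RNA, as log2 over the channel's median negative-control spot, was 3.33, 2.99 and 1.91 in the 3 replicates at 0 hr and 3.08, 2.27 and 1.97 at 24 hr. At 48 hr it was 0.74, 0.98 and 0.80, so the untreated cultures alone separated 48 hr from both earlier times without overlap. This order was seen in 1 of the 29 tested genes of the group and in 0.936% of all 1282 tested probes. It was noticed after the values were seen and was not tested, and it cannot be told apart from differences between quantification days.

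The neomycin RNA of TRAF6 gave 3.31, 0.85 and 0.96 at 0 hr, 1.53, 0.23 and 0.79 at 24 hr, and 0.09, 0.90 and 0.98 at 48 hr on the same scale. At 24 hr every neomycin value lay below every control value. At 0 hr replicate 1 did not share the gap, with nearly the same signal in both RNAs.

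IRF2 binds the same DNA sites as IRF1 and mostly opposes it. It was above the limit in 91.2% of channels at 0 hr, in 3.12% at 24 hr and in 63.9% at 48 hr. Its control RNA had log2 signals over the negative controls of 1.74, 2.31 and 1.31 at 0 hr, 1.15, 0.33 and -0.04 at 24 hr, and 2.87, 1.99 and 0.37 at 48 hr. At 48 hr its detection went by replicate: neomycin and control RNA were above the limit on 37.5% and 100% of the arrays of replicate 1, on 100% and 100% in replicate 2 and on 0% and 0% in replicate 3.

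NFKB2 encodes p100, the precursor of the p52 subunit. It was above the limit in 88.2% of channels at 0 hr, in both RNAs alike, and in 28.1% and 38.9% at 24 and 48 hr. At 24 hr its control signal was 2.73 in replicate 2 and 0.93 and 0.49 in replicates 1 and 3. At 48 hr all arrays of replicate 2 and none of replicate 3 were above the limit in either RNA. TRAF4, an adaptor known for its part in epithelial development, was above it in 29.4%, 25% and 80.6% of channels. Its control signal at 24 hr was 0.01, -0.11 and 3.90. For both genes detection at 24 hr was confined almost wholly to 1 biological replicate, and in it both RNAs were above the limit on 100% of arrays.

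**Figure D2:**
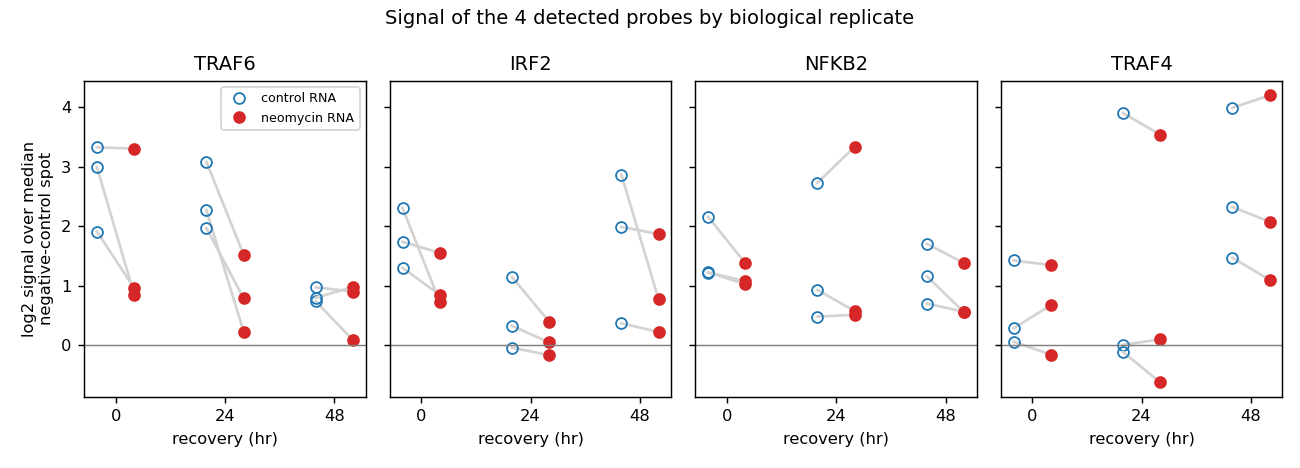
Signal of the 4 probes detected at any time point (y axis, log2 over the channel's median negative-control spot) at 0, 24 and 48 hr, 1 open point for control RNA and 1 filled point for neomycin RNA per biological replicate, joined by a line. Control RNA of TRAF6 lies between 1.91 and 3.33 at 0 and 24 hr and between 0.74 and 0.98 at 48 hr, and TRAF4 ranges from -0.11 to 3.90 within the controls of 24 hr.

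Neomycin was then compared with control at each time. A ratio is log2(neomycin/control) after background correction and loess normalization, averaged over the arrays of a biological replicate, so a negative ratio means less signal with neomycin. A filter that took the dimmest 15% of gene probes removed 5 (STAT5A, IRF3, IRF4, ISGF3G and NFATC3), and 29 were tested. In limma none of the 29 passed an adjusted p under 0.05 at 0, 24 or 48 hr, and over all 1282 tested probes the share that passed was 0% at each time. Without adjustment 1 of 29 was under 0.05 at 0 hr (TRAF6), 2 at 24 hr (TRAF6 and NFKBIB) and 2 at 48 hr (NFATC1 and NFKBIL1). The shares over all tested probes were 2.96%, 8.35% and 4.52%, near the 3.45%, 6.90% and 6.90% of these genes. As fewer cells of a type and less RNA per cell give the same ratio in such samples, the ratios cannot tell these apart.

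The direction of the ratios was mixed. At 0 hr 13 genes were higher and 16 lower, at 24 hr 16 and 13, and at 48 hr 13 and 16. The median ratio was -0.0018, 0.05 and -0.06 at the 3 times, against -0.0081, 0.0026 and -0.02 for the other 1253 tested probes. All 3 replicates had the same sign in 5, 10 and 10 of 29 genes, where the shares over all tested probes were 23.2%, 26.8% and 30.5%. The same sign in all replicates and in both suffixes was found in 3 of 29 at each time, where the shares were 2.42%, 6.79% and 4.21%. At 0 hr these were IRF1 and IRF2 (lower) and NFKBIL1 (higher), and at 24 hr TRAF6, IRF2 and NFKBIB (all lower). At 48 hr they were IRF5 and RELB (lower) and TRAF5 (higher), but some of these signs were weak. In replicate 2 suffix 3 of IRF5 was at -0.0042 and suffix 5 of RELB at -0.0039. In replicate 3 suffix 3 of RELB was at -0.0015. For TRAF5 the sign of suffix 5 in replicate 2 (mean 0.42, lowest array -0.19) rested on 1 array at 1.62.

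**Figure D3:**
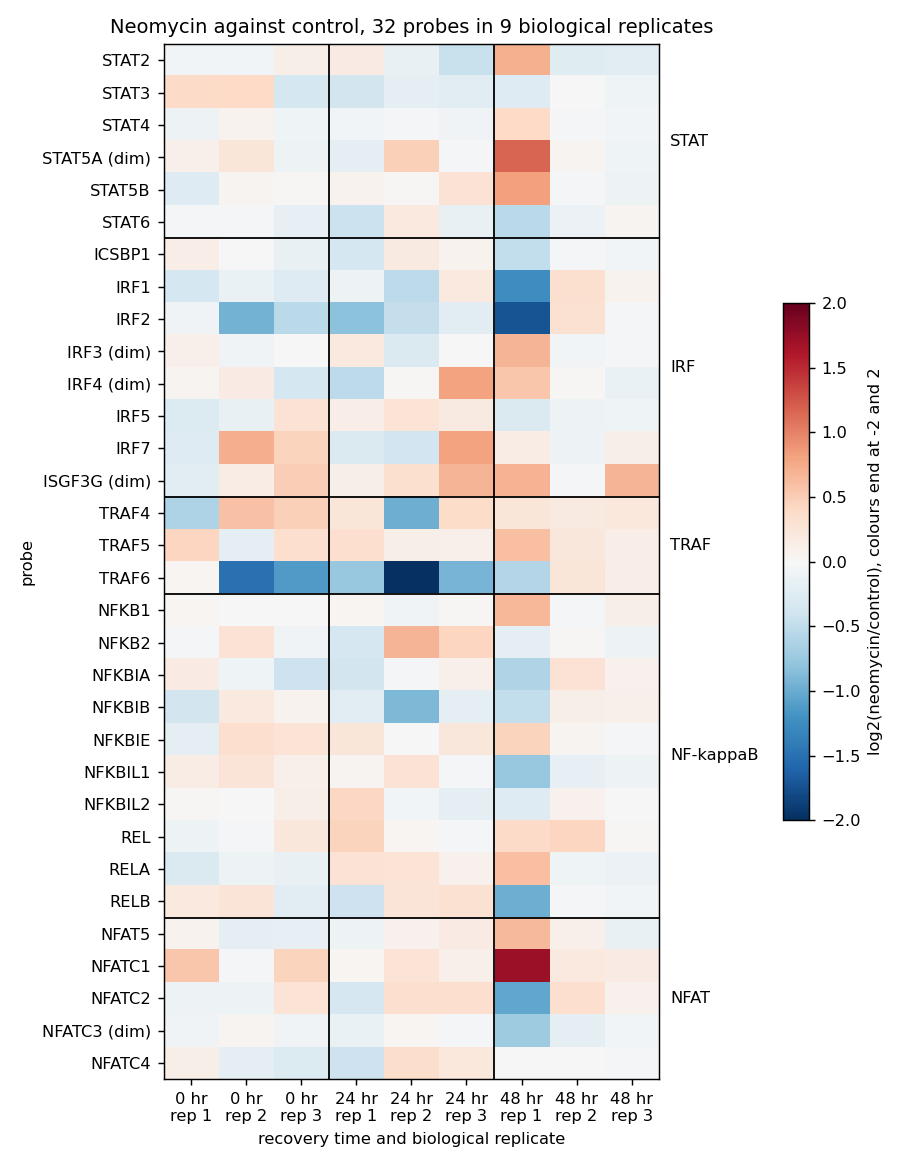
Log2(neomycin/control) of 32 of the 34 probes (rows, by family) in the 9 biological replicates (columns), red for more and blue for less signal with neomycin; the colours end at -2 and 2, and dim probes were not tested. Replicate 1 at 48 hr holds wide ratios in both directions where replicates 2 and 3 are pale, and TRAF6 is blue in 6 of 9 columns, with -2.79 in replicate 2 at 24 hr beyond the end of the colours.

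TRAF6 had the widest mean ratios of the group at 0 and 24 hr. Its replicates gave 0.04, -1.49 and -1.13 at 0 hr, -0.75, -2.79 and -0.93 at 24 hr, and -0.58, 0.24 and 0.14 at 48 hr. All replicates were thus lower with neomycin at 24 hr, with means of -0.86 ± 0.80 at 0 hr, -1.49 ± 1.13 at 24 hr and -0.07 ± 0.45 at 48 hr (SD, n = 3). At 24 hr the neomycin RNA was above the negative-control limit on 87.5%, 25% and 50% of the arrays of the 3 replicates, and the control RNA on 100% in each, so the size of the ratio in replicate 2 in particular is uncertain. In limma its unadjusted p was 0.0486, 0.0029 and 0.863 and its adjusted p 1.00, 0.588 and 0.978. At 24 hr its p ranked 2 among the 1282 tested probes. An exact two-sided sign-flip test over the 3 replicates gave p = 0.25 at 24 hr, the smallest it can give.

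The single arrays of TRAF6 at 24 hr were all below 0. They numbered 16 and ranged from -3.48 to -0.56, and the 4 arrays of replicate 2 (-3.48 to -2.08) did not overlap the other 12 (-1.22 to -0.56). Both dye orientations gave the same sign: suffixes 3 and 5 were at -0.80 and -0.71 in replicate 1, -3.28 and -2.29 in replicate 2, and -0.65 and -1.21 in replicate 3. The mean without replicate 2 was -0.84, with an adjusted p of 0.998. A fit to single arrays in which the biological replicate was the random block, at an estimated correlation of 0.20 over all probes, gave -1.41 and an adjusted p of 0.0036. With the quantification day as the block the adjusted p was 5.0e-04, so this call was made only where arrays, not biological replicates, were the units.

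Some markers of other cells were lower in the same samples. The summed signal of 5 supporting cell probes, over the channel's median negative-control spot, was between 7.20 and 9.99 in neomycin RNA at 24 hr and between 12.5 and 20.4 in control RNA. At 0 hr the ranges overlapped (7.78 to 15.0 and 7.72 to 15.2), as they did at 48 hr (6.29 to 14.4 and 9.55 to 16.6). These sums were taken before normalization, and at 24 hr control signal was higher in general. Over the gene probes outside the signalling group the median log2 signal at 24 hr was 0.36 in control RNA and 0.24 in neomycin RNA. The sum at 24 hr turned on SOX2, which was lower in replicates 1 and 2 and higher, at 0.13, in replicate 3 (mean -0.99, adjusted p 0.588 in limma), and the list went both ways, with 3 of 5 probes lower and a median of -0.07. All 4 stroma probes were lower at 24 hr, with a median of -0.17, among them PMX1, lower in all replicates and most in replicate 2 (mean -1.02, adjusted p 0.588 in limma). Their summed signal overlapped between the RNAs (3.88 to 6.05 with neomycin and 4.02 to 8.22 in control). The part of these cells in the ratio of TRAF6 was not tested.

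At 0 hr the TRAF6 arrays disagreed between replicates. All 6 arrays of replicate 2 were lower (-1.80 to -1.06), those of replicate 1 lay on both sides of 0 (-0.25 to 0.48), and the 4 of replicate 3 spanned -3.72 to 1.58. The highest of these was the array that correlated negatively with its own replicate. Without it the mean was -1.10 with an adjusted p of 0.997 in limma, and with its sign turned the mean was -1.03. At 48 hr 11 of 18 arrays were lower, and in replicates 2 and 3 the suffixes had opposite signs (0.70 and -0.22, then 0.36 and -0.08).

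**Figure D4:**
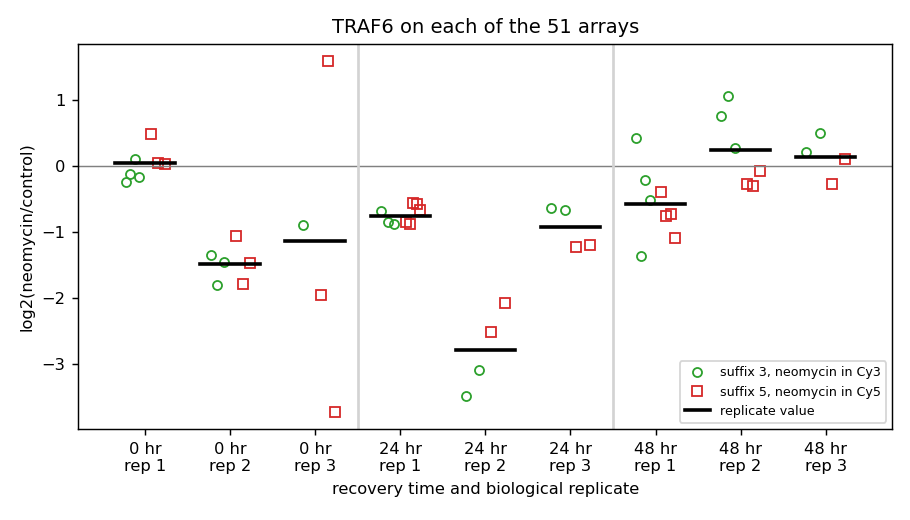
Log2(neomycin/control) of TRAF6 (y axis) on each of the 51 arrays, by recovery time and biological replicate (x axis) and by suffix (circles for neomycin in Cy3, squares for neomycin in Cy5), with the replicate value as a bar. All 16 arrays at 24 hr lie below 0, replicate 1 at 0 hr lies around 0, and 1 array of replicate 3 at 0 hr stands at 1.58.

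The other TRAF probes did not share this pattern. TRAF5, which serves receptors of the tumour necrosis factor family, gave 0.43, -0.17 and 0.33 at 0 hr and 0.34, 0.12 and 0.11 at 24 hr. At 48 hr it gave 0.60, 0.23 and 0.14, with a mean of 0.32 ± 0.24 (SD, n = 3) and a limma adjusted p of 0.784 (0.0637 unadjusted). Its signal was above the negative-control limit in 11.8%, 6.25% and 19.4% of channels, and 1 array of replicate 2 at 48 hr stood at 1.62. TRAF4 had means of 0.15, -0.12 and 0.21. Its replicates at 24 hr were 0.24, -0.97 and 0.36, while at 48 hr, where it was detected, they were 0.25, 0.18 and 0.21, the narrowest spread of the TRAF probes at that time. The suffixes of TRAF4 disagreed in sign in replicate 2 at 48 hr (-0.06 and 0.41).

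Among the STATs, which answer to interferons (STAT2), interleukin-6 (STAT3), interleukin-12 (STAT4), prolactin and growth hormone (STAT5A, STAT5B) and interleukin-4 (STAT6), the ratios were small. Of the 6 tested, 5 were lower at 0 hr, 5 at 24 hr and 3 at 48 hr, and none passed. Their mean ratios ran from -0.07 (STAT6) to 0.15 (STAT3) at 0 hr, from -0.26 (STAT3) to 0.13 (STAT5B) at 24 hr, and from -0.20 (STAT6) to 0.22 (STAT5B) at 48 hr. The set median was -0.05, -0.10 and 0.0077.

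STAT3 had the smallest p of the STATs, at 24 hr, with replicates of -0.37, -0.20 and -0.23. Its mean was -0.26 ± 0.09 (SD, n = 3), and limma gave an adjusted p of 0.724 (0.129 unadjusted). It was above the negative-control limit in 0% of channels at 24 hr, so no size can be given for this ratio. Suffix 3 carried it (-0.69, -0.49 and -0.35), and suffix 5 gave -0.05, 0.10 and -0.10. At 0 hr its replicates were 0.39, 0.40 and -0.35 and at 48 hr -0.26, 0.0048 and -0.08. In replicate 1 at 0 hr its suffixes 3 and 5 disagreed in sign (-0.17 and 0.95). The arrays of suffix 5 there ran from 0.01 to 2.80.

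STAT2 had means of -0.0018, -0.14 and 0.08, STAT4 of -0.04, -0.05 and 0.10, STAT5B of -0.06, 0.13 and 0.22, and STAT6 of -0.07, -0.13 and -0.20. STAT5A, not tested, had 0.08, 0.08 and 0.38, and its highest replicate, at 1.16, was replicate 1 at 48 hr.

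The IRFs drive interferon genes (IRF1, IRF3, IRF7 and ISGF3G, the DNA-binding part of a complex that holds STAT2), inflammatory genes (IRF5) and genes of blood cell development (IRF4, ICSBP1). Of the 6 tested, 5 were lower at 0 hr, 3 at 24 hr and 4 at 48 hr. Their medians were -0.06, 0.0025 and -0.17. None passed, and none had an unadjusted p under 0.05.

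IRF2 had the lowest mean of the IRFs at each time. Its replicates were -0.07, -0.94 and -0.54 at 0 hr, -0.82, -0.48 and -0.21 at 24 hr, and -1.72, 0.31 and -0.04 at 48 hr. The means were -0.52 ± 0.44, -0.50 ± 0.30 and -0.48 ± 1.09 (SD, n = 3), with unadjusted p of 0.142, 0.154 and 0.167 and adjusted p of 1.00, 0.733 and 0.784 in limma. At 0 and 24 hr every replicate and both suffixes were lower, while at 48 hr the mean rested on replicate 1. The ratios of 24 hr came from a probe near the negative controls, and only those of 0 hr from one that was detected.

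IRF7, whose chicken gene carries IRF3 as an older name in the annotation, gave -0.26, 0.73 and 0.45 at 0 hr, a mean of 0.31 ± 0.51 (SD, n = 3) with an adjusted p of 1.00 in limma. Its means at 24 and 48 hr were 0.04 and 0.05. IRF1 was lower in all replicates at 0 hr (-0.36, -0.14 and -0.25) and reached -1.24 in replicate 1 at 48 hr, where replicates 2 and 3 were at 0.32 and 0.07. IRF5 was higher in all replicates at 24 hr (0.13, 0.28 and 0.18) and lower in all at 48 hr (-0.28, -0.11 and -0.08). At 24 hr its suffixes disagreed in sign in replicates 1 (-0.14 and 0.40) and 2 (0.61 and -0.05). The IRF5 probe was above the negative-control limit in 9.38% of channels at that time. ICSBP1 had means of -0.0012, -0.04 and -0.19. The untested IRF3, IRF4 and ISGF3G lay between -0.04 and 0.45, and ISGF3G was the highest of them at each time (0.13, 0.37 and 0.45), with no channel above the limit at 0 or 48 hr.

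The NF-kappaB group held the subunits RELA, RELB, REL, NFKB1 and NFKB2, the inhibitors NFKBIA, NFKBIB and NFKBIE that keep them in the cytoplasm, NFKBIL1, a related protein encoded among the immune genes of the major histocompatibility complex in human, and NFKBIL2, which despite its name is known in human for DNA repair at replication forks. Of the 10, 7 were higher at 0 hr, 7 at 24 hr and 4 at 48 hr. Medians were 0.03, 0.08 and -0.07, and none passed.

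NFKBIB was lower in all replicates and both suffixes at 24 hr. Its replicates were -0.21, -0.91 and -0.18 and its mean -0.43 ± 0.41 (SD, n = 3), and limma gave an adjusted p of 0.588 (0.0468 unadjusted). The mean without replicate 2 was -0.19. That replicate was also the lowest for TRAF6 and TRAF4. In it the NFKBIB probe was above the negative-control limit on 0% of the arrays for neomycin and 25% for control, whereas replicate 3, with 100% in both, gave -0.18. At 0 and 48 hr the means of NFKBIB were -0.04 and -0.09.

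NFKBIL1 was higher in all replicates at 0 hr (0.15, 0.26 and 0.10) and lower in all at 48 hr (-0.76, -0.17 and -0.10). In replicate 2 at 48 hr its suffixes 3 and 5 disagreed in sign (0.07 and -0.40). The lower value of that replicate rested on 1 array at -1.36, against -0.15 to 0.37 on the others. The mean at 48 hr was -0.34 ± 0.36 (SD, n = 3), for which limma gave an adjusted p of 0.784 (0.0447 unadjusted), and it was -0.13 without replicate 1. The probe was above the limit in 20.6% of channels at 0 hr and 30.6% at 48 hr.

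Of the subunits, REL had the smallest p at 48 hr, with replicates of 0.38, 0.42 and 0.02, a mean of 0.27 ± 0.22 (SD, n = 3), and a limma adjusted p of 0.784 (0.0898 unadjusted). RELA was lower in all replicates at 0 hr (-0.29, -0.10 and -0.16) and higher in all at 24 hr (0.28, 0.27 and 0.08), from a probe above the limit in 0% and 6.25% of channels. RELB was lower in all at 48 hr (-0.98, -0.03 and -0.06), almost wholly in replicate 1. NFKB2, detected at 0 hr, gave -0.04, 0.29 and -0.07 there, but its suffixes disagreed in sign in replicates 1 (-0.49 and 0.42) and 3 (-0.63 and 0.50). NFKB1 had means of 0.01, -0.0014 and 0.24, and NFKBIL2 of 0.04, 0.06 and -0.06. NFKBIA, a target as well as an inhibitor of NF-kappaB, had means of -0.11, -0.10 and -0.07, and NFKBIE of 0.14, 0.15 and 0.15. In both the replicates disagreed in sign at each time.

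NFATC1 to NFATC4 are the calcineurin-dependent NFATs, and NFAT5 answers to osmotic stress. Of the 4 tested, 2 were higher at 0 hr, 4 at 24 hr and 2 at 48 hr. Their medians were -0.04, 0.09 and 0.09. NFATC1 had a mean of 0.70 ± 0.89 (SD, n = 3) at 48 hr. Its unadjusted p was 0.0249 and its adjusted p 0.784 in limma. The replicates were 1.72, 0.19 and 0.17, and the mean without replicate 1 was 0.18. Of 36 channels at 48 hr, 1 was above the negative-control limit, a channel of neomycin RNA, so that no size can be given. Over single arrays the adjusted p was 0.167 when the random block was the biological replicate and 0.0098 when it was the quantification day.

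The other NFATs varied mostly in replicate 1 at 48 hr. There NFATC2 was at -1.03 and NFAT5 at 0.65, against 0.33 and 0.09 in replicate 2 and 0.09 and -0.15 in replicate 3. The means were 0.02, 0.12 and -0.20 for NFATC2, -0.10, 0.05 and 0.20 for NFAT5 and -0.11, 0.05 and -0.02 for NFATC4. NFATC3, not tested, had -0.03, -0.04 and -0.32.

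**Figure D5:**
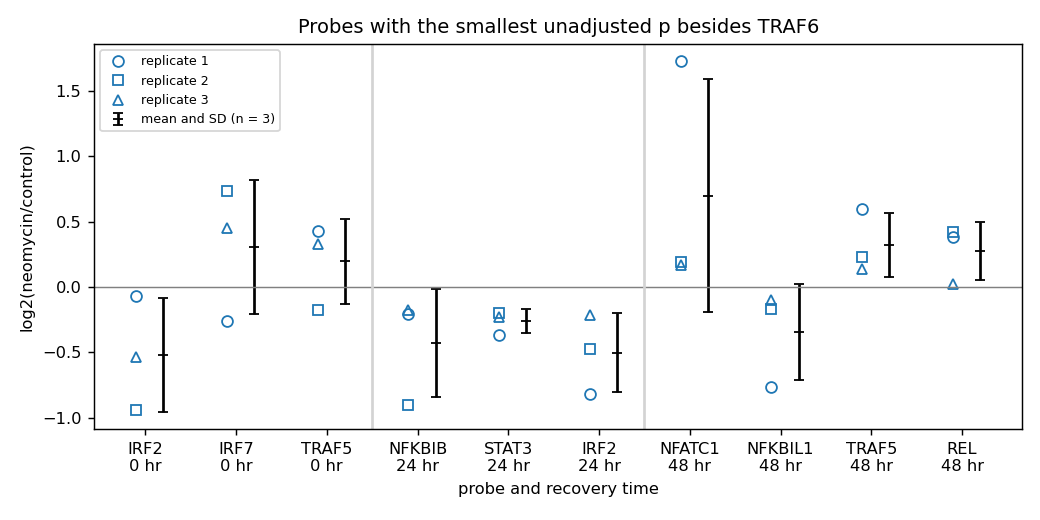
Log2(neomycin/control) (y axis) in each biological replicate for the probes with the smallest unadjusted p at each time point besides TRAF6 (x axis), with the mean and SD of 3 replicates beside them. For NFATC1, NFKBIL1 and TRAF5 at 48 hr replicate 1 stands farthest from 0, at 1.72, -0.76 and 0.60.

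The spread of the group went with the replicate. Over the 29 tested genes the SD of the ratios was 0.73 in replicate 1 at 48 hr and 0.17 and 0.11 in replicates 2 and 3. Over the other 1253 tested probes it was 0.57, 0.24 and 0.20. At 24 hr the SD was 0.33, 0.63 and 0.31 in the 3 replicates and at 0 hr 0.28, 0.42 and 0.34. The dye orientations repeated each other in some replicates only: suffixes 3 and 5 had the same sign for 24 of 29 genes in replicate 1 at 48 hr, but for 12 and 17 in replicates 2 and 3. At 0 hr the counts were 14, 20 and 15, and at 24 hr 15, 17 and 20. In replicate 1 at 24 hr the median of the group was -0.39 in suffix 3 and 0.10 in suffix 5, where the other probes had 0.02 and 0.03. A correlation between suffixes over these genes, which share their arrays, was 0.82 in replicate 2 at 24 hr, 0.81 in replicate 2 at 0 hr and -0.41 in replicate 2 at 48 hr.

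Whether the ratio itself differed between recovery times was asked with contrasts of the same fit. In limma none of the 29 genes passed in any of the 3 contrasts (24 against 0 hr, 48 against 24 hr and 48 against 0 hr, in that order here), and 0% of all tested probes did. Without adjustment 0, 1 and 1 of 29 were under 0.05, where the shares over all probes were 1.33%, 3.98% and 1.48%. For 48 hr minus 24 hr TRAF6 had a difference of 1.42 (SE 0.54), with an unadjusted p of 0.0251 and an adjusted p of 0.848. Its 24 hr replicates all lay below its 48 hr replicates. The exact two-sided permutation test gave p = 0.10, the smallest it can give with 3 against 3. At 48 hr the TRAF6 probe was above the negative-control limit in 33.3% of channels. In replicate 3 it was above it on 0% of the arrays in both RNAs. No size can therefore be given for this difference. Against 0 hr the differences of TRAF6 were -0.63 at 24 hr and 0.79 at 48 hr, with exact permutation p of 0.60 and 0.20. The limma F test of TRAF6 over the 3 times had an adjusted p of 0.879 (0.0088 unadjusted).

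NFKBIL1 had the smallest p of the group for 48 hr minus 0 hr, a difference of -0.51 (SE 0.21) with an unadjusted p of 0.036 and an adjusted p of 0.998, and the next smallest for 48 hr minus 24 hr, -0.44 with an adjusted p of 0.848. For 24 hr minus 0 hr the smallest p belonged to STAT3 (-0.41, adjusted p 0.998) and RELA (0.39, adjusted p 0.998). Both came from probes that were above the negative-control limit in under 10% of channels at one or both of the times compared.

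Other genes of these pathways, from a list of 40 names of STAT and IRF partners, NF-kappaB regulators and AP-1 and early response factors, had 25 probes, of which 24 were tested. None passed at any time in limma. Their medians were -0.01, -0.02 and 0.0042, and 14, 13 and 11 of them were lower. At 24 hr 2 had an unadjusted p under 0.05. NRF, a repressor of NF-kappaB target genes, gave -1.24, -0.76 and 0.09 (mean -0.64, adjusted p 0.588) and was above the limit in 62.5% of channels. EGR1, an early response factor, gave 0.39, 0.34 and 0.13 (mean 0.29, adjusted p 0.588) and was above it in 9.38%.

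Markers of cell types were looked at beside these genes. Of 12 leukocyte probes 6 were lower with neomycin at 0 hr, 8 at 24 hr and 6 at 48 hr. Medians were -0.02, -0.04 and 5.4e-05, and none passed. TBX21 was the most often above the limit of these, in 50%, 50% and 80.6% of channels, and at 24 hr 4 of the 12 were never above it. At 24 hr 1 of the 12, POU2AF1, had an unadjusted p under 0.05. It gave -0.39, -0.57 and -0.20 (mean -0.39, adjusted p 0.588 in limma, 0.0124 unadjusted) and was above the limit in 31.2% of channels. None of the 4 hair cell probes (POU4F3, ATOH1, GFI1 and BARHL1) was detected at any time, and their medians were 0.0056, -0.02 and -0.15. At 48 hr 3 of the 4 were lower, among them POU4F3 at -1.60, -0.76 and -0.01 (mean -0.79, adjusted p 0.784 in limma, 0.0088 unadjusted), which was above the limit in 55.6% of channels. The summed hair cell signal overlapped between neomycin and control RNA at each time (at 48 hr 2.89 to 14.6 and 3.79 to 15.3). Of the 5 supporting cell probes HEY2 was detected at 48 hr, and SOX2 was above the limit in 78.1% of channels at 24 hr, with list medians of 0.04, -0.07 and -0.01. All 4 stroma probes were lower with neomycin at 48 hr too, with a median of -0.12, and none was detected or passed at any time. Of 4 neuron probes POU4F1 was detected at 0 and 48 hr, and the medians of the 3 tested were 0.09, 0.08 and -0.23. The part of cell composition in the ratios of the signalling genes was not tested.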

How the data were processed

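ImaGene gave, per the file headers, an unnormalized intensity of every spot and of its surroundings in both dyes. A deposited table of log2 ratios (neomycin against control) matched the ratios of those signals to within 1e-06 in 51 columns, whose medians ran from -1.49 to 2.55. For their own analysis the authors applied LOWESS and dropped genes of low intensity.

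The software was limma 3.58.1 under R 4.3.3, and figures were drawn with matplotlib 3.10.9. Signal means were corrected by normexp (offset 50) and normalized by loess within each array. The 19 negative-control probes, taken as such from their names alone, and 8 mismatch-named probes had weight 0 and were left out of the tests. Duplicate spots were averaged, and arrays were turned by their suffix, averaged within suffix, then over both suffixes, which gave 9 biological replicate values per probe, arrays of a replicate being technical copies. The dimmest 15% of gene probes (227) were left out and 1282 tested. Time-point means and their contrasts were fitted with lmFit and eBayes on all 9 replicates, with Benjamini-Hochberg adjustment over all tested probes. Replicates are taken from the labels as separate samples. The fit was tested on simulated data with the same spread in all replicates of a probe, which does not cover replicates of unequal spread. Signal over negative controls was taken before normalization.

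The genes were matched by name alone, but this group of genes, like the lists of partners and markers, the tests and the 5 arrays left out in an alternative, was settled on with earlier results of these data known. The genes named were TRAF6, the 4 with the smallest p at each time, the 2 with the smallest p in each contrast, and those detected; further values stand for the other genes. The values of some genes of the group are not reported here, although counts and medians include them. Same-numbered replicates of different times did not deviate together (correlations from -0.16 to 0.06), and they were fitted as unpaired. Arrays of the same replicate could correlate as weakly (medians from -0.01 to 0.13 in replicate 3 at 48 hr). These correlations therefore cannot show whether same-numbered replicates share a source. Each time has 3 biological replicate values, and limma shares the spread over all 9 replicates and across probes. Its p can thus lie on either side of that from the 3 values alone. At 24 hr the unadjusted p of TRAF6 was 0.0029 in limma and 0.149 in a one-sample t-test. For STAT3 at 24 hr limma gave 0.129 and the t-test 0.038. No genome build is named in the sources used here, and no coordinates or probe sequences are given.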

Additional observations from a re-analysis of the deposited data

Results flagged for a closer look

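For the named genes the arrays of each biological replicate were searched for a single array far from the others, in 39 groups of 4 to 8 arrays; 4 were found, where chance gives about 1 in 20 groups. IRF2 at 24 hr stood at -1.29 on array 2 of suffix 3 in replicate 2, where the other 3 arrays lay between -0.23 and -0.18. NFATC1 at 48 hr stood at 0.39 on array 1 of suffix 3 in replicate 3, against 0.09 to 0.11 on the others. At 48 hr the same array, array 1 of suffix 5 in replicate 2, was far from the other 5 for both NFKBIL1 (-1.36, against -0.15 to 0.37) and TRAF5 (1.62, against -0.19 to 0.19). The SD of its log2 ratios over all tested probes was 0.78, and in Cy5 44.0% of spots did not exceed their background. Without it and the 4 other arrays taken to stand apart, the means at 48 hr were -0.27 for NFKBIL1 and 0.23 for TRAF5. Both had an adjusted p of 0.921 in limma.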

How the results depend on the processing

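None of the genes passed in any comparison under any alternative that kept biological replicate means. None passed a one-sample t-test of each probe's 3 replicate values against 0 after Benjamini-Hochberg adjustment. At the fold and p limits of the study's methods, that test held 0, 1 (STAT3) and 0 of 29 genes at 0, 24 and 48 hr. The shares over all tested probes were 1.09%, 2.26% and 1.25%. The study ran its t-test over hybridizations, so these counts are not those of its own test. Its lists for the cochlea after neomycin held several of these genes. There IRF2 was lower at 0, 24 and 48 hr, and NFKBIL1 was higher at 0 hr and lower at 48 hr. IRF5 and RELB were higher at 24 hr and lower at 48 hr, and NFKB2 was higher at 24 hr. At 48 hr NFATC1 and ISGF3G were higher, and ICSBP1 and NFATC3 lower. The study also named NF-kappaB among the signalling pathways of which it found several components. Single arrays with a random block gave calls. With the biological replicate as block 1 gene (TRAF6, -1.41, adjusted p 0.0036) passed at 24 hr, among 37 probes, and its F test gave an adjusted p of 0.0062. With the quantification day as block 1 gene passed at 24 hr (TRAF6, -1.47, among 70 probes), 1 at 48 hr (NFATC1, 0.92, among 41) and 1 for 48 hr minus 24 hr (TRAF6, 1.49, adjusted p 0.0448, among 14), with an F test of TRAF6 at 4.8e-04. At 0 hr 8 probes passed with that block, and none of these genes. The sign of TRAF6 at 48 hr was reversed by scale normalization (0.046), suffix 3 alone (0.21) and the day block (0.019), and leaving out 1 replicate gave -0.22 to 0.19. TRAF5 at 0 hr was -0.11 with suffix 5 alone, and STAT3 for 24 hr minus 0 hr was 0.014 with the deposited ratios. Background subtraction moved the median of the genes at 0 hr to 0.035, median centring to -0.070 and leaving out 1 replicate to -0.048 to 0.040; suffix 3 alone moved that at 24 hr to -0.10. Asking for 100% of channels left 0 genes detected at each time, and asking for 50% gave 4 at 48 hr. Leaving out 1 replicate gave 3 to 4 genes at 0 hr and 0 to 1 at 24 hr (0 without replicate 1). At 48 hr it gave 0 to 3 (3 without replicate 1, 0 without replicate 2). Leaving out the 5 arrays taken to stand apart, chosen for this count after seeing the data, gave 0 at 48 hr. The replicate number as a block left 0 genes passing in each contrast, with a smallest adjusted p of 0.895. Of 29 genes, up to 10, 10 and 13 turned sign under some alternative at 0, 24 and 48 hr. Leaving out or turning array 2 of suffix 5 in 0 hr replicate 3 were added after seeing the data. Signals near the negative controls limit most of these ratios.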
